A study of Mus musculus with 2 samples.

Results

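The 10 genes described here encode proteins that shape or organise membrane domains: the caveola coat proteins Cavin1, Cavin2, Cavin3 and Cavin4, the caveola neck ATPase Ehd2, the membrane-bending pacsins Pacsin1, Pacsin2 and Pacsin3, and the flotillins Flot1 and Flot2. They were taken by symbol from the 55416 features of the deposited matrices, and each symbol matched 1 feature, so that all 10 members were found. The study measured RNA in single nuclei of whole fetal mouse brain. It has 2 libraries, 1 labelled wildtype and 1 labelled as a knockout of Cav1, the gene of caveolin 1. The labels give the age of both only as fetal, and give no strain, litter, sex, number of brains or design of the knockout allele. With 1 library per genotype there is no replicate check and no test of genotype. All intervals below are exact 95% intervals that cover counting error only.

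Caveolae are small pits of the plasma membrane that are abundant in endothelial, muscle and fat cells and are scarce in neurons. Caveolins form their core, cavins coat it from the cytosol, with Cavin1 needed for the coat to form, and Ehd2 holds the neck. Pacsins, also called syndapins, bend membranes through an F-BAR domain and recruit dynamin through an SH3 domain, while flotillins form scaffolds in membrane patches that hold no caveolin. Cavin4, also called Murc, is known as the cavin of skeletal and heart muscle, Pacsin1 as the neuronal pacsin, Pacsin2 as a broadly present one that also sits at caveolae, and Pacsin3 as one abundant in muscle.

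The library labelled wildtype held 9763 barcodes and the library labelled knockout 10811. Nuclei with at least 500 detected genes and at most 5% mitochondrial counts were kept, 6686 with 17205381 unique molecular identifiers (UMIs, 1 per captured RNA) and 6680 with 19878903 UMIs. The median kept nucleus held 2133 and 2366 UMIs, and 10 barcodes occurred among the kept nuclei of both. The total level of Cav1 did not separate the libraries, with 71 and 80 UMIs, or 4.13 and 4.02 CPM (the UMIs of a gene for every 1000000 counted). In endothelial-like, mural-like and fibroblast-like nuclei together, the wildtype-labelled library held 20 Cav1 UMIs (39.4 CPM) and the knockout-labelled one 1 UMI (1.52 CPM). Cav2, the neighbouring caveolin gene, had 19 and 764 UMIs. Since total Cav1 does not separate them, the libraries are named by their labels throughout.

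The cavin genes are introduced by the stretch before their annotated starts, because Cavin4 starts 366 bases after the end of another gene on the same strand and its counts, given below, differ from those of the other 3. By the GENCODE annotation on GRCm39, the build named in the submitters' processing notes, each has 2 exons. Cavin1 lies at chr11:100847559-100861713 on the minus strand, Cavin2 at chr1:51328266-51345710 on the plus strand, Cavin3 at chr7:105128391-105131507 on the minus strand and Cavin4 at chr4:48663503-48674045 on the plus strand. The 250 bases before the start of each canonical transcript are printed 5′ to 3′ on the gene's strand, from chr11:100861714-100861963, chr1:51328016-51328265, chr7:105131508-105131757 and chr4:48663253-48663502, with capitals at matches on either strand to TATAAA (the TATA box core), to CAGCTG (an E-box), to CGCCCC (a GC box core) and to TTCCTG (an ETS-type core):
Cavin1: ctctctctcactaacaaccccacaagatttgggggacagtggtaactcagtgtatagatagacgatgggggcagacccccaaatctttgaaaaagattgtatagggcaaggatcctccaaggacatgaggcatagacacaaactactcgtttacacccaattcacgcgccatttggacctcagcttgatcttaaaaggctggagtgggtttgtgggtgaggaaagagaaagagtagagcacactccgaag
Cavin2: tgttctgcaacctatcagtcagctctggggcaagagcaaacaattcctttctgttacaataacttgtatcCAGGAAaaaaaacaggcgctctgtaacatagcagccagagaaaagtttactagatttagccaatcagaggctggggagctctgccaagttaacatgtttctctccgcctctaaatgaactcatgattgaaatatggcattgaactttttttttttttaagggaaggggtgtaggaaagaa
Cavin3: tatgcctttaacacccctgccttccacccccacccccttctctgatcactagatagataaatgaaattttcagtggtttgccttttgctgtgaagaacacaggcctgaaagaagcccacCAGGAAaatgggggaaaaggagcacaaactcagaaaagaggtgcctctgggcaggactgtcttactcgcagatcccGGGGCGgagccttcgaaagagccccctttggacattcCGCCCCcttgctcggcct
Cavin4: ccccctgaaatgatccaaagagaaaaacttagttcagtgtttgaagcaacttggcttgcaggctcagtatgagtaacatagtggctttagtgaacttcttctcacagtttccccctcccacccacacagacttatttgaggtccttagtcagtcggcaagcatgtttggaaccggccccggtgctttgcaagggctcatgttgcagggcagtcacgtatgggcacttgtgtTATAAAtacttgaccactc
The Cavin4 window held 1 match to TATAAA, beginning 19 bases before the start, a match that 11.9% of the 21770 windows of protein-coding genes have somewhere. The Cavin3 window held 2 matches to CGCCCC (32.1% of all windows have 1 or more) and 1 to TTCCTG (24.5%), the Cavin2 window 1 to TTCCTG, and the Cavin1 window none of the 4 (CAGCTG occurs in 11.9%). No match overlapped another. The 4 windows held 2 to 6 CpG dinucleotides, against a median of 8 over all windows. A match describes letters and not binding.

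The gene before Cavin4 is Tmeff1, which encodes a transmembrane protein with follistatin-like and EGF-like domains that is abundant in brain, and it spans chr4:48584869-48663136 on the plus strand. The last 30 annotated bases of its longest transcript, shown because they end 366 bases before Cavin4 begins, are from chr4:48663107-48663136:
Tmeff1 end: gttataatataatgttttcactatacggtc
Neither AATAAA nor ATTAAA, the common poly(A) signals, occurs in these 30 bases, read on the transcript strand, whereas 57.6% of 21770 canonical protein-coding transcripts hold one of them in their last 30. The last 30 bases of the canonical Cavin4 transcript hold neither as well.

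Cavin1, Cavin2 and Cavin3 were each counted only rarely. Cavin1, without which caveolae do not form, had 43 UMIs in the wildtype-labelled library (2.50 CPM, interval 1.81 to 3.37) and 52 in the knockout-labelled library (2.62 CPM, 1.95 to 3.43). Cavin2, which helps to shape the coat, had 26 and 38 UMIs (1.51 and 1.91 CPM). Cavin3, which links the coat to signalling proteins, had 47 and 74 UMIs (2.73 and 3.72 CPM). Ehd2 had 39 and 48 UMIs (2.27 and 2.42 CPM). The intervals of the 2 libraries overlapped for each of these genes.

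Within each library these few counts were denser in the vascular and meningeal nuclei. Nuclei were assigned to a class by at least 3 of 8 marker genes with a lead of at least 1, and no member is a marker. Nuclei with under 3 markers of every class but at least 3 of 8 general neuron markers were taken as neurons of no class. They are counted among the neuron classes below. Endothelial-like, mural-like and fibroblast-like nuclei together numbered 131 and 178. In them Cavin1 had 6 UMIs (11.8 CPM) against 31 (2.26 CPM) in all other assigned nuclei of the wildtype-labelled library, which is 2.39 (0.83 to 3.67) on the log2 scale. The knockout-labelled library gave 11 UMIs (16.8 CPM) against 32 (2.01 CPM), or 3.06 (1.92 to 4.09) on the log2 scale. Cavin1 was thus higher in these pooled nuclei in both libraries, with both UMI intervals above 0. The UMIs of the pooled nuclei lay in only 4 and 10 nuclei, and these intervals treat UMIs as independent. The class with most of these UMIs differed between the libraries. Fibroblast-like nuclei held 4 and 3 (wildtype-labelled and knockout-labelled), endothelial-like nuclei 2 and 7, and mural-like nuclei 0 and 1.

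These 3 classes were pooled after the class values had been seen. In the pooled nuclei the other caveola genes had an interval above 0 in 1 library each. The share of all genes with such an interval was not computed for this contrast. By fold, 8.06% of 15528 genes were at least 2-fold higher there in each library. Cavin2 gave a log2 ratio of 3.08 (1.71 to 4.29) among knockout-labelled nuclei, from 8 UMIs (12.2 CPM) against 23 (1.44 CPM), while the wildtype-labelled library held 1 UMI in the vascular and meningeal classes (log2 ratio 0.67, -4.72 to 3.34). For Ehd2 the knockout-labelled library gave 9 UMIs (13.7 CPM) against 30 (1.88 CPM), or 2.87 on the log2 scale (1.61 to 3.98), and the wildtype-labelled library 2 UMIs and 1.00 (-2.12 to 2.99). Cavin3 had 5 UMIs in these nuclei of each library, with log2 ratios of 2.17 (0.45 to 3.55) for wildtype-labelled and 1.22 (-0.46 to 2.54) for knockout-labelled nuclei. The intervals of the 2 libraries overlapped for each of the 3 genes. Overlap is no test, and the difference between the libraries in these ratios was not computed.

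Endothelial-like nuclei alone, 39 and 61 in number, gave another set. Cavin3 had an interval above 0 in both libraries, from 3 and 4 UMIs, with log2 ratios of 2.68 (0.33 to 4.36) and 2.09 (0.16 to 3.53). Cavin1 had one in the knockout-labelled library (3.45, 2.04 to 4.64, from 7 UMIs) but not in the wildtype-labelled library (1.97, -1.14 to 3.93, from 2 UMIs). For Cavin2 (3.06, 1.08 to 4.58) and Ehd2 (3.05, 1.34 to 4.41) it was again the knockout-labelled library. The share of all genes with such an interval in endothelial-like nuclei was not computed.

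Shares of nuclei gave the same order for Cavin1. Of the vascular and meningeal nuclei 3.05% (0.84 to 7.63) and 5.62% (2.73 to 10.1) held a Cavin1 UMI in the wildtype-labelled and knockout-labelled libraries. Among the neuron classes, where caveolae are scarce, the shares were 0.58% (0.35 to 0.89) and 0.60% (0.37 to 0.91). Median depths were 2680 and 2745 UMIs against 2354 and 2601. Nuclei were then thinned to 1000 UMIs each, and those with fewer were left out. This left out 4 and 8 vascular and meningeal nuclei, and 246 and 356 of the neuron classes. After thinning the vascular and meningeal shares were 1.57% (0.19 to 5.57) and 2.35% (0.64 to 5.92), from 2 and 4 nuclei. The neuron shares were then 0.28% (0.13 to 0.53) and 0.09% (0.02 to 0.28). In the wildtype-labelled library the intervals of vascular and neuron shares overlapped before and after thinning. In the knockout-labelled library they did not overlap. Overlap or its lack is no test, and the difference between the shares was not tested.

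**Figure D1:**
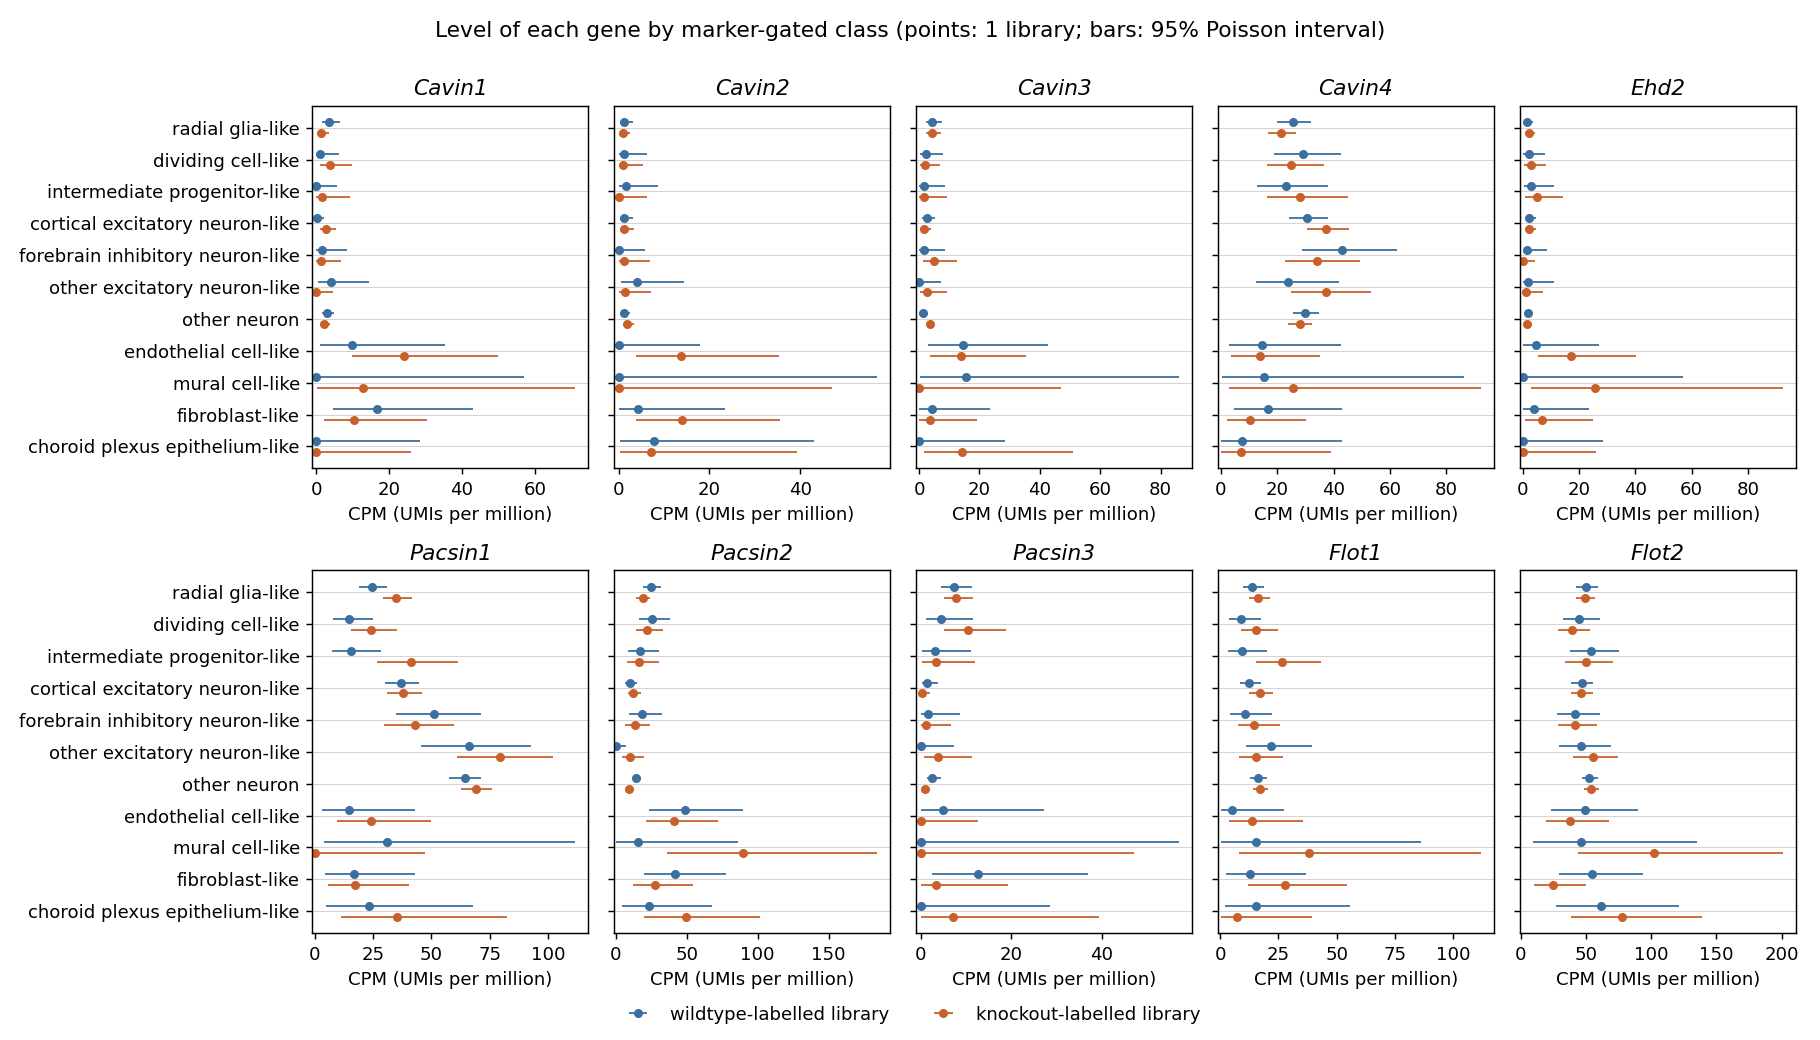
Level of each of the 10 genes in CPM (x axis) by marker-assigned class (y axis), with blue points for the wildtype-labelled and orange for the knockout-labelled library and bars for the exact 95% Poisson interval of a single library. Among the 11 classes drawn, Pacsin1 is highest in the other excitatory neuron-like class (65.9 and 79.6 CPM). Pacsin2 is at 48.8 and 41.4 CPM in endothelial-like nuclei and at 15.45 and 89.4 CPM in mural-like nuclei, from 1 and 7 UMIs. In choroid plexus-like nuclei it is at 23.1 and 49.3 CPM, from 3 and 7 UMIs. Flot2 lies between 38.0 and 61.7 CPM in all but 3 of its points.

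Cavin4 differed from the other cavins in how often and where it was counted. It had 473 UMIs in the wildtype-labelled library (27.5 CPM) and 537 in the knockout-labelled library (27.0 CPM). Per kilobase of annotated gene span this was 2.61 and 2.56 CPM, against 0.18 and 0.18 for Cavin1, 0.09 and 0.11 for Cavin2 and 0.88 and 1.19 for Cavin3. Tmeff1 was at 2.78 and 2.80, and Flot2, on another chromosome, at 2.225 and 2.239. The remaining members lay between 0.11 (Ehd2) and 1.28 (Flot1). Whether counts scale with gene span was not tested. Kept nuclei with at least 1 Cavin4 UMI made up 6.58% (5.998 to 7.202) and 7.29% (6.68 to 7.94).

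Cavin4 was counted in all 11 classes that had at least 20 nuclei in each library, but in the endothelial-like, mural-like, fibroblast-like and choroid plexus-like classes on 1 to 4 UMIs per library. General neuron markers summed to between 1082 and 1438 CPM in those 4 classes, against 2706 to 3441 CPM in the neuron classes, and their part in these counts was not tested. Its level was 25.5 and 21.3 CPM in radial glia-like nuclei, the neural stem cells of the fetal brain. In cortical excitatory neuron-like nuclei it was 30.6 and 37.5 CPM, and in forebrain inhibitory neuron-like nuclei 43.2 and 34.2 CPM. Vascular and meningeal nuclei were at the low end with 8 UMIs (15.8 CPM) and 9 UMIs (13.7 CPM), against 28.8 and 28.3 CPM in all other assigned nuclei. That gave log2 ratios of -0.87 (-2.09 to 0.12) and -1.05 (-2.18 to -0.11). Of the 8 skeletal muscle markers, 6 were detected in each library with 54 and 91 UMIs in all (3.14 and 4.58 CPM), Myog was at 0 in both, and no nucleus was assigned to muscle.

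The levels of Cavin4 and Tmeff1 were correlated over the 11 classes, with the low end of Tmeff1 held by classes with few Cavin4 counts. Tmeff1 had 3738 and 4360 UMIs (217 and 219 CPM). For every 100 Tmeff1 UMIs there were 12.7 Cavin4 UMIs (11.5 to 13.9) in wildtype-labelled and 12.3 (11.2 to 13.5) in knockout-labelled nuclei. Over the 7 classes with the most Cavin4 UMIs this number lay between 8.88, in intermediate progenitor-like nuclei of the wildtype-labelled library, and 19.1, in its dividing nuclei, with overlapping intervals. Over the 22 points made by 11 classes and 2 libraries, log2(CPM + 1) of the 2 genes had a Pearson r of 0.79. The vascular, meningeal and choroid plexus-like classes, lowest in Tmeff1, held 1 to 4 Cavin4 UMIs per library, and r without them was not computed. Among better counted wildtype-labelled classes, dividing nuclei had 152 CPM of Tmeff1 and 29.1 of Cavin4. Intermediate progenitor-like nuclei had 260 and 23.1 CPM, and forebrain inhibitory neuron-like nuclei 265 and 43.2 CPM. The points share libraries and depth, and 66 other genes had a higher r with Cavin4, led by Ypel1 (0.91), Gm48512 (0.89) and 5330431K02Rik (0.87).

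Single nuclei were then sorted by whether they held a Tmeff1 UMI. With all UMIs, 10.2% (9.05 to 11.5) and 11.6% (10.4 to 12.9) of those with one also held Cavin4, against 4.47% (3.87 to 5.14) and 4.40% (3.79 to 5.08) of those without, but nuclei with Tmeff1 are also deeper. Nuclei were then thinned to 1000 UMIs each, with shallower nuclei left out. In the wildtype-labelled library 3.92% (2.85 to 5.25) of those with a Tmeff1 UMI also held a Cavin4 UMI, against 2.40% (1.99 to 2.88) without. In the knockout-labelled library the shares were 3.54% (2.52 to 4.82) and 2.89% (2.42 to 3.42). The intervals overlapped in both libraries, narrowly in the wildtype-labelled one, which is no test of the difference between the shares. Whether reads from RNA that runs on from Tmeff1 were counted as Cavin4 was not tested.

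**Figure D2:**
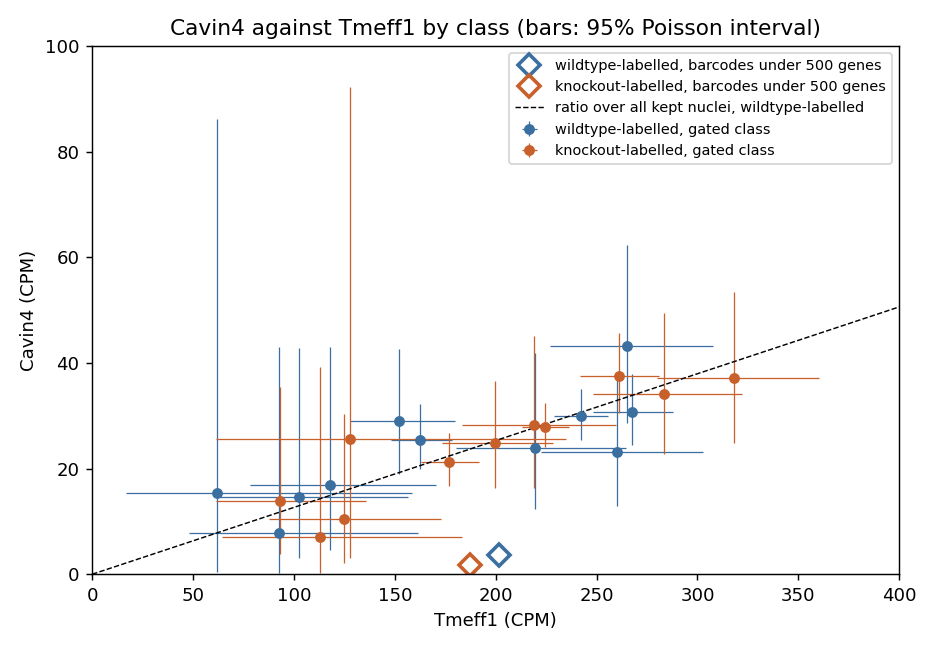
Level of Cavin4 (y axis, CPM) against Tmeff1 (x axis, CPM) in 11 classes of each library, with bars for the exact 95% Poisson intervals, open diamonds for the barcodes under 500 detected genes and a dashed line at the wildtype-labelled ratio of 12.7 per 100. The class points scatter around the line, with wide bars at its low end, and the diamonds, at 3.61 and 1.76 CPM of Cavin4, lie below it.

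Barcodes with under 500 detected genes, which were left out of the classes, gave a different balance of the cavins. They numbered 2969 (30.4% of barcodes) and 3904 (36.1%) and held 1661313 and 2269610 UMIs. Ribosomal protein genes made up 10.2% and 11.1% of their UMIs, against 1.62% and 1.46% in nuclei with 2000 or more genes. Malat1, a nuclear RNA, made up 0.65% and 0.52% against 3.81% and 4.42%. Their part in the values that follow was not tested.

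In these barcodes Cavin1 had 19 and 32 UMIs, or 11.4 and 14.1 CPM, which was above the kept nuclei by 2.19 (1.33 to 3.00) and 2.43 (1.75 to 3.09) on the log2 scale. For Cavin3 the 22 and 41 UMIs were 13.2 and 18.1 CPM, with log2 ratios of 2.28 (1.48 to 3.04) and 2.28 (1.69 to 2.85). Cavin4 went the other way, with 6 and 4 UMIs (3.61 and 1.76 CPM) and log2 ratios of -2.93 (-4.38 to -1.80) and -3.94 (-5.82 to -2.57). Cavin1 and Cavin3 rank high and Cavin4 low among all genes, at percentiles 98.4 and 99.4, 99.1 and 98.4, and 8.92 and 3.92 of this ratio.

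Tmeff1 differed far less than Cavin4 there. It stood at 202 and 187 CPM, a log2 ratio of -0.11 (-0.27 to 0.05) and -0.23 (-0.38 to -0.08), so that Cavin4 came to 1.79 (0.65 to 3.94) and 0.94 (0.26 to 2.43) per 100 Tmeff1 UMIs. The intervals lie below those of the kept nuclei. Of 8 members with at least 100 UMIs over kept nuclei and these barcodes, 3 were at least 2-fold higher in each library (Cavin1, Cavin3 and Pacsin3, where 14.8% of 15829 genes were) and 2 at least 2-fold lower (Cavin4 and Pacsin1, where 37.8% were). The median of all genes was -0.40 and -0.43.

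**Figure D3:**
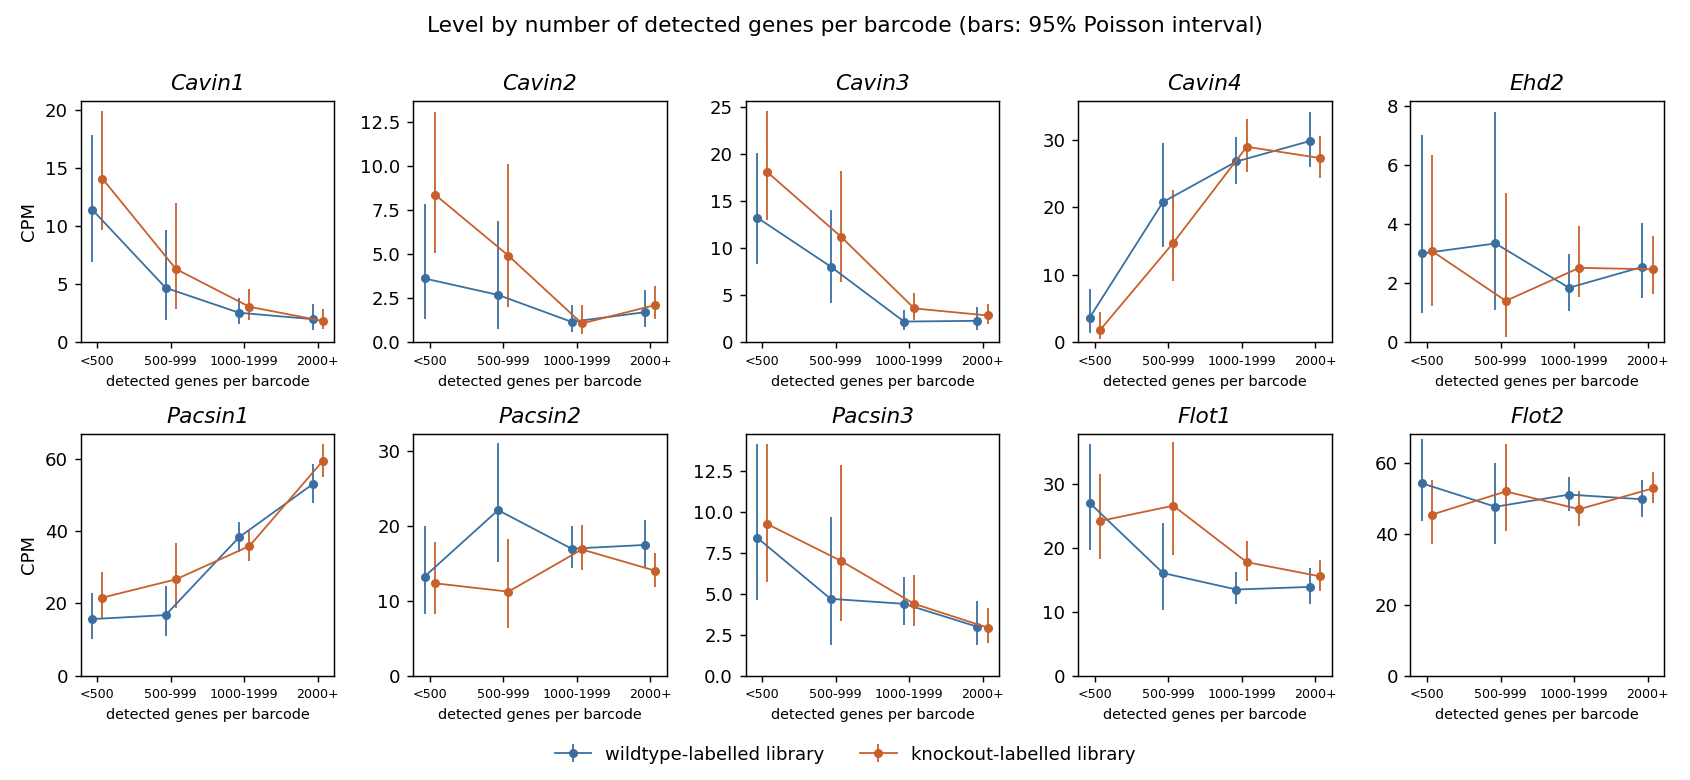
Level of each gene in CPM (y axis) by detected genes per barcode (x axis) for the wildtype-labelled (blue) and knockout-labelled (orange) libraries, with exact 95% Poisson intervals. Cavin1 goes from 11.4 and 14.1 CPM under 500 genes to 1.99 and 1.83 CPM at 2000 or more, Cavin4 from 3.61 and 1.76 to 29.8 and 27.3 CPM, and Flot2 stays between 45.4 and 54.2 CPM.

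The 3 pacsins divided between neuron classes and radial glia-like plus dividing nuclei. Pacsin1 (chr17:27873758-27930457), which in neurons acts with dynamin in synaptic vesicle recycling, had 730 and 957 UMIs (42.4 and 48.1 CPM). In the neuron classes together it had 512 UMIs (55.5 CPM) against 80 (22.0 CPM) in radial glia-like and dividing nuclei of the wildtype-labelled library, or 1.34 (1.00 to 1.70) on the log2 scale. The knockout-labelled library gave 643 UMIs (60.3 CPM) against 145 (32.4 CPM), or 0.89 (0.63 to 1.17). Of these neuron UMIs, 343 of 512 and 440 of 643 lay in neurons of no class, which general neuron markers select. Cortical excitatory neuron-like nuclei held 36.9 and 37.9 CPM, and forebrain inhibitory neuron-like nuclei 50.9 and 42.8 CPM. Radial glia-like nuclei held 24.4 and 35.0 CPM, and intermediate progenitor-like nuclei 15.4 and 41.4 CPM. A ratio of the cortical to the radial glia-like class was not computed.

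Pacsin1 also differed among neurons. Among the classes with at least 20 nuclei in each library it was highest in other excitatory neuron-like nuclei, which carry markers such as Slc17a6 and Barhl1, at 65.9 and 79.6 CPM, and in neurons that met no class, at 64.2 and 69.1 CPM. Smaller classes gave higher values on 3 to 6 UMIs per library: other inhibitory neuron-like nuclei (6 and 13 nuclei) at 128.7 and 107.3 CPM, and microglia or macrophage-like nuclei (15 and 13 nuclei) at 170.7 and 80.0 CPM. Other excitatory neuron-like nuclei had a median depth of 3356 and 3443 UMIs. The part of depth in their level was not tested. Cortical excitatory neuron-like nuclei, with a median of 2465 and 2808 UMIs, held 36.9 and 37.9 CPM. The neurons of no class exceeded them by 0.80 (0.47 to 1.14) and 0.87 (0.55 to 1.20) on the log2 scale. Only the neurons of no class were chosen by general neuron markers. These markers summed to 3351 and 3441 CPM in them, against 2852 and 2913 CPM in cortical excitatory neuron-like nuclei. The part of this rule in the difference was not tested. Neurons of no class made up 2126 of the 3448 and 2325 of the 3525 nuclei of the neuron classes. The genes most like Pacsin1 over the 22 class points were 4930415C11Rik (Pearson r 0.93), Gm13595 (0.92) and Lrfn2 (0.91).

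Pacsin2 (chr15:83258424-83348819) had the reverse order. Its 116 UMIs in neuron classes (12.6 CPM) stood against 92 (25.3 CPM) in radial glia-like and dividing nuclei of the wildtype-labelled library, for a log2 ratio of -1.01 (-1.41 to -0.59). In the knockout-labelled library 113 UMIs (10.6 CPM) stood against 88 (19.7 CPM), or -0.89 (-1.31 to -0.47). Vascular and meningeal nuclei were higher still, with 21 UMIs (41.4 CPM) and 27 UMIs (41.1 CPM). All other assigned nuclei were at 16.6 and 13.9 CPM, for log2 ratios of 1.32 (0.60 to 1.96) and 1.56 (0.93 to 2.14). The small microglia or macrophage-like class (15 and 13 nuclei) was above the vascular and meningeal pool, at 170.7 and 60 CPM from 6 and 3 UMIs. Other excitatory neuron-like nuclei of the wildtype-labelled library, with 136 nuclei, were at 0 Pacsin2 UMIs (exact interval 0 to 7.37 CPM), and those of the knockout-labelled library held 8 (10.3 CPM).

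A Pacsin2 UMI was held by 4.25% (3.78 to 4.76) and 4.06% (3.60 to 4.56) of kept nuclei, and a Pacsin1 UMI by 8.91% (8.24 to 9.62) and 10.8% (10.0 to 11.5). Over the 22 class points the 2 genes had a Pearson r of -0.65, given as a description of points that share libraries. The genes most like Pacsin2 were Nfkbil1 (0.86), Enox2 (0.85) and Wwtr1 (0.84).

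Pacsin3 (chr2:91086095-91095033) was, like Pacsin2, higher in radial glia-like and dividing nuclei than in neuron classes, at a lower count. Intermediate progenitor-like nuclei held 2 UMIs in each library (3.08 and 3.315 CPM). Over the 22 class points its Pearson r with Pacsin2 was 0.30, and 3988 genes had a higher r with Pacsin3. It had 19 UMIs in neuron classes (2.06 CPM) and 24 in radial glia-like and dividing nuclei (6.59 CPM) of the wildtype-labelled library, which is -1.68 (-2.63 to -0.75) on the log2 scale. The knockout-labelled library had 11 (1.03 CPM) and 38 (8.50 CPM), or -3.04 (-4.16 to -2.05). Pacsin3 lies 44 bases before Arfgap2 on the same strand, and reads near that boundary are uncertain in their assignment. Eva1c (0.86), Palld (0.85) and Gm37139 (0.83) were the genes most like it.

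Of the 7 members with at least 100 UMIs over both libraries, none was 2-fold higher in neuron classes in each library, where 0.631% of 15528 genes were, and 1 (Pacsin3) was 2-fold lower, where 7.72% were. For vascular and meningeal nuclei 2 were higher (Cavin3 and Pacsin2, against 8.06% of genes) and 1 lower (Pacsin1, against 7.91%). Whether Pacsin1 was counted among the genes 2-fold higher in neuron classes depended on the class rule. With at least 4 markers its log2 ratios were 1.85 and 1.23, and with a lead of 2 markers 1.76 and 1.37, past 2-fold in both libraries. With at least 2 markers they were 0.60 and 0.52. The number of genes 2-fold higher in each library was 98 by the rule used here and 383 with at least 4 markers.

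**Figure D4:**
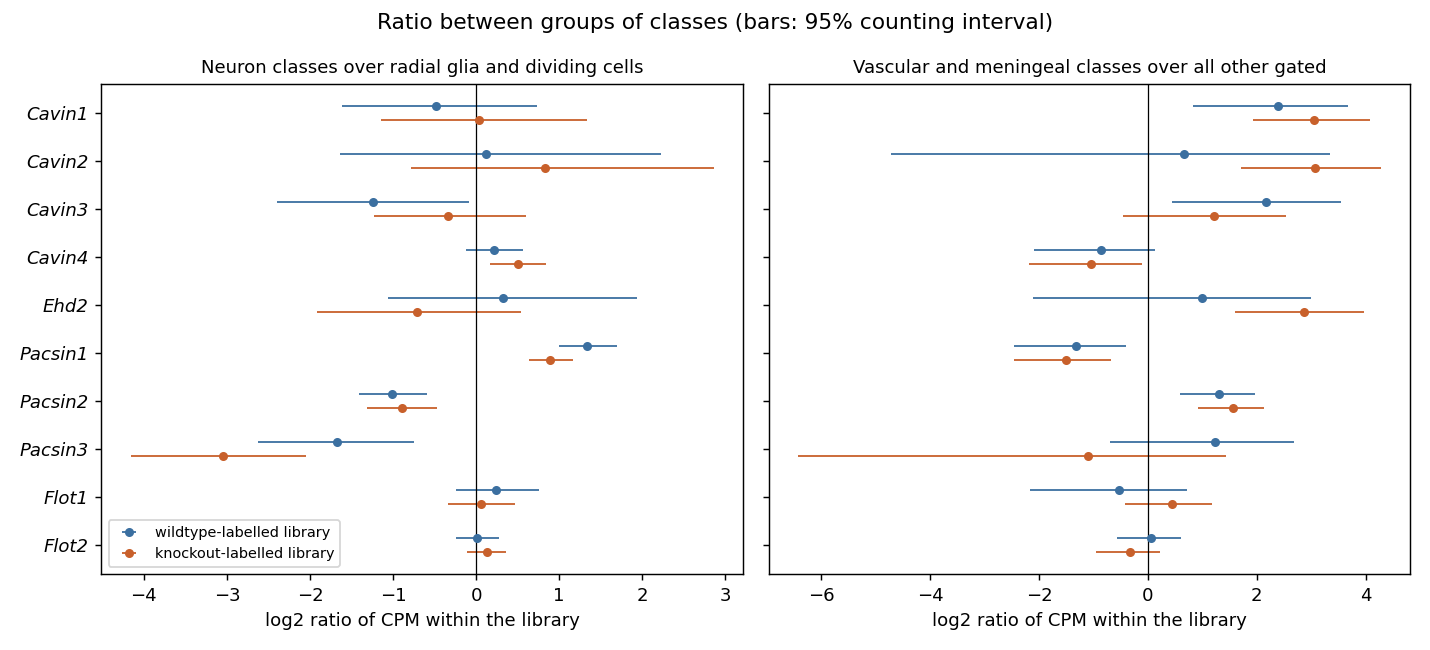
Log2 ratio of CPM (x axis) between neuron classes and radial glia-like plus dividing nuclei (left) and between vascular and meningeal and all other assigned nuclei (right) for each gene, in the wildtype-labelled (blue) and knockout-labelled (orange) library with exact 95% counting intervals. On the left Pacsin1 lies right of 0 at 1.34 and 0.89, and Pacsin2 and Pacsin3 left of it in both libraries.

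Flot2 (chr11:77928723-77951263) had 863 and 1003 UMIs (50.2 and 50.5 CPM) and varied little between the groups of classes. It stood at 49.4 and 51.1 CPM in neuron classes and 48.9 and 46.8 CPM in radial glia-like and dividing nuclei, log2 ratios of 0.02 (-0.24 to 0.28) and 0.13 (-0.10 to 0.37). In vascular and meningeal nuclei it was 51.3 and 39.6 CPM. In barcodes under 500 genes it was at 54.2 and 45.4 CPM. Nuclei with a Flot2 UMI made up 11.6% (10.8 to 12.4) and 12.7% (11.9 to 13.5). Cers4 (0.80), Gm17090 (0.80) and Cry2 (0.80) had the highest Pearson r with it, values lower than those that lead for Pacsin1.

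Flot1 (chr17:36134075-36147515), the partner of Flot2 in flotillin scaffolds, had 239 UMIs (13.9 CPM) and 342 UMIs (17.2 CPM). Neuron classes and radial glia-like plus dividing nuclei differed by 0.24 (-0.25 to 0.76) and 0.06 (-0.34 to 0.48) on the log2 scale. Vascular and meningeal nuclei held 5 UMIs (9.86 CPM) and 15 UMIs (22.9 CPM), log2 ratios to all other assigned nuclei of -0.52 (-2.16 to 0.72) and 0.44 (-0.42 to 1.19). In barcodes under 500 genes Flot1 was at 27.1 and 24.2 CPM, above the kept nuclei by 0.96 (0.47 to 1.43) and 0.49 (0.06 to 0.91) on the log2 scale. Its annotated span overlaps that of Tubb5, a tubulin gene on the opposite strand with 14203 and 15324 UMIs, by 2707 bases. Whether the authors' counting used strand is not given in the sources used here, so some reads of these 2 genes may be exchanged. The same holds for Cavin2, whose span lies inside that of 9330175M20Rik on the opposite strand (133 and 135 UMIs). Flot2 begins 30 bases after Dhrs13 on the same strand.

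Between the libraries the members differed little. Of the 7 with at least 100 UMIs, none differed by 2-fold, where 0.367% of 15528 genes were 2-fold higher and 0.116% 2-fold lower in the knockout-labelled library. Intervals lay above 0 for 2, Pacsin1 and Flot1, and below 0 for 1, Pacsin2, where 13.2% of all genes had an interval above and 13.2% one below 0. Pacsin1 was at 0.18 on the log2 scale (0.04 to 0.32), Flot1 at 0.31 (0.07 to 0.55), and Pacsin2 at -0.24 (-0.48 to -0.01). Of these only the interval of Flot1 stayed off 0 under all 6 alternative settings. That of Pacsin1 reached 0 with a mitochondrial limit of 1% (-0.02 to 0.29), without the highest doublet scores (-0.01 to 0.30) and with nuclei thinned to 1000 UMIs (-0.09 to 0.46). That of Pacsin2 reached 0 with at least 1000 genes (-0.43 to 0.07), with the mitochondrial limit of 1%, with scaling by the median of gene ratios and with thinning (-0.55 to 0.31).

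Set against all genes, whose log2 ratios had a median of -0.01 and 5th and 95th percentiles of -0.31 and 0.42, Flot1 lay at percentile 91.4, Pacsin1 at 83.3 and Pacsin2 at 8.59. Flot2 was at 0.01 (-0.12 to 0.14), Cavin4 at -0.03 (-0.21 to 0.16) and Pacsin3 at -0.02 (-0.52 to 0.48). Cavin3 was at 0.45 (-0.10 to 1.01), percentile 95.6, on 121 UMIs, and its interval lay above 0 with a minimum of 200 genes (0.02 to 0.92) and with a mitochondrial limit of 1% (0.27 to 1.68). The 3 with fewer counts were Cavin1 at 0.07 (-0.55 to 0.68), Cavin2 at 0.34 (-0.42 to 1.12) and Ehd2 at 0.09 (-0.55 to 0.74).

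**Figure D5:**
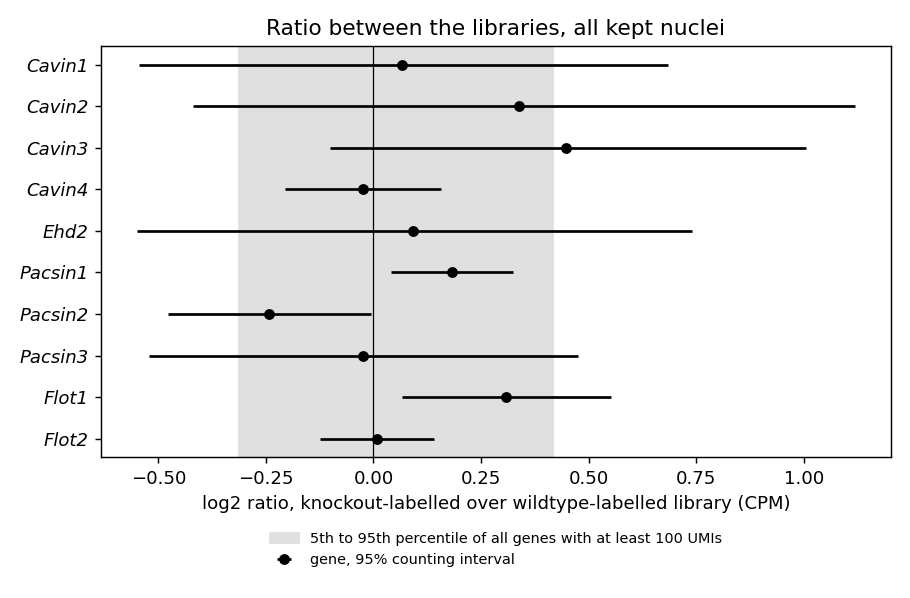
Log2 ratio of CPM between the knockout-labelled and wildtype-labelled library (x axis) for each gene over all kept nuclei, with exact 95% counting intervals and a grey band from the 5th to the 95th percentile of all genes with at least 100 UMIs. All points but that of Cavin3, at 0.45, lie inside the band of -0.31 to 0.42.

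Within classes, 42 pairs of a member and a class held at least 20 UMIs, of which 20 were higher and 22 lower in the knockout-labelled library. In radial glia-like nuclei Pacsin1 had 67 UMIs (24.4 CPM) and 120 UMIs (35.0 CPM), a log2 ratio of 0.52 (0.08 to 0.98), the 1 of 7 members there with an interval above 0, where 7.04% of genes had one and 7.86% one below. These UMIs lay in 51 and 77 nuclei, and once nuclei were thinned to 1000 UMIs the share with Pacsin1 was 1.93% and 1.87% (17 nuclei each). The interval reached 0 with at least 2 markers (-0.02 to 0.65) and without the highest doublet scores (-0.06 to 1.00). General neuron markers summed to 1869 and 2061 CPM in the same nuclei, and their part in the difference was not tested. In intermediate progenitor-like nuclei 2 of 5 members had an interval above 0, where 4.45% of genes did, and none had one below, where 4.28% did. Pacsin1 had 10 and 25 UMIs there (15.4 and 41.4 CPM, log2 ratio 1.43, 0.32 to 2.65) and Flot1 6 and 16 (9.24 and 26.5 CPM, 1.52, 0.09 to 3.16), with general neuron markers at 2759 and 2710 CPM. Both intervals reached 0 when 2 or when 4 markers were required, and that of Flot1 also without the highest doublet scores.

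Neurons of no class held 1 of 9 members with an interval above 0, where 8.26% of genes had one, and 2 below, where 7.18% did. Cavin3 had 7 and 22 UMIs there (1.31 and 3.46 CPM, log2 ratio 1.40, 0.12 to 2.87). Pacsin2 had 76 and 61 UMIs (14.2 and 9.58 CPM, -0.57, -1.08 to -0.07), and Pacsin3 14 and 6 (2.62 and 0.94 CPM, -1.48, -3.14 to -0.01). The Pacsin3 value turned to 0.13 (-2.08 to 2.47) when 2 markers sufficed for a class.

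No member had an interval without 0 in the remaining 6 classes with counts. In all genes the shares above and below 0 there were 5.24% and 4.59% for dividing nuclei (5 members tested), 5.75% and 5.3% for cortical excitatory neuron-like nuclei (5 members) and 4.69% and 4.23% for forebrain inhibitory neuron-like nuclei (4 members). They were 4.58% and 4.56% for other excitatory neuron-like nuclei (4 members), 4.68% and 4.73% for endothelial-like nuclei (2 members) and 4.61% and 4.21% for fibroblast-like nuclei (1 member).

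Genes that work with the members were read from 4 lists. In the list of caveolins, EHD proteins and caveola partners 9 of 10 genes reached 100 UMIs, with 2 higher and 7 lower in the knockout-labelled library and a median log2 ratio of -0.07, against -0.01 over all genes. The share of all genes higher or lower was not computed, so this split has no background. Cav2 was the 1 gene 2-fold apart (5.12, 4.47 to 5.86), where 0.367% of all genes were 2-fold higher and 0.116% lower. Dnm2, a dynamin, and Ror1 had intervals below 0 (-0.15 and -0.18), where 13.2% of all genes had one below and 13.2% one above. Ehd1, a relative of Ehd2 in endosome recycling, had 384 and 427 UMIs and a ratio of -0.06 (-0.26 to 0.15).

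Of 17 F-BAR relatives and SH3 partners of the pacsins, 5 had an interval above 0 and 7 below, with a median of -0.04. Of all genes 13.2% had one each way, but this share is not matched for count, here or for the other lists. Intervals narrow as counts rise, so that genes of high count pass on small ratios. Fnbp1l, with 8745 and 9796 UMIs, and Srgap3, with 8699 and 9742, both lay below 0 at -0.045. The part of count in the 5 and 7 was not tested. Cobl, an actin nucleator that binds pacsins, was at 0.33 (0.18 to 0.47) and Dnm1, the neuronal dynamin, at 0.20 (0.06 to 0.34), whereas Wasl, an actin regulator that pacsins recruit, was at -0.11 (-0.21 to -0.01). Among flotillin relatives and partners, Erlin2, a relative in the endoplasmic reticulum, was at 0.25 (0.07 to 0.44), the cadherin gene Cdh2 at -0.05 (-0.09 to -0.01) and the kinase gene Fyn at -0.06 (-0.11 to -0.00088). Clathrin coat and adaptor genes had 2 of 10 above (Cltb, 0.23, and Snap91, 0.13) and none below.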

How the data were processed

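Nuclei of whole fetal brain, 1 wildtype-labelled and 1 Cav1 knockout-labelled library, were captured with 10x 3′ chemistry of version 3.1, per the labels. The values used are raw UMI counts, as deposited. Per the file headers the authors made the matrices with Cell Ranger 6.1.1, whereas the submitters' processing notes list Cell Ranger 3.0.1, STAR and GRCm39. Annotation release, strand and the treatment of intronic reads are not given in the sources used here. Intronic counting would raise long genes and nuclear RNA.

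Barcodes with at least 500 genes and at most 5% mitochondrial UMIs were kept. Scrublet (scanpy 1.11.5) called 0 and 1 doublets, so it had not worked and doublets were left in; an alternative left out the 582 and 592 highest scores. Classes required 3 of 8 markers and a lead of 1. Neurons of no class had under 3 markers of every class and at least 3 of 8 general neuron markers. They were rebuilt here and are not the authors' annotation. Groups of classes, bins of detected genes and the Tmeff1 comparison were chosen after values were seen. Levels are CPM, computed here from the summed counts of nuclei. Ratios carry exact conditional binomial intervals and shares Clopper-Pearson intervals. Genes needed 100 UMIs over both libraries, or 20 within a class. All 10 members are named, with 4 lists of related genes, neighbours within 50 kb and the 3 genes most like each member; the members and lists were chosen with earlier results of these data known. Interval code was tested on simulated data. Positions are from GENCODE M39 on GRCm39, which matched 98.8% of features by identifier. One gene of the flotillin partner list is not reported here, and no count over that list is given.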

Additional observations from a re-analysis of the deposited data

How the results depend on the processing

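Of 212 recomputed values 178 stayed within their counting interval or 1.5 times of the count, 33 moved and 1 reversed. No paired analysis was possible because each genotype has 1 library. A minimum of 200 or 1000 genes, a mitochondrial limit of 1%, scaling by the median of gene ratios and leaving out high doublet scores moved none of the 10 ratios between the libraries beyond their intervals. They did take intervals across 0: that of Pacsin1 under 2 of these settings, that of Pacsin2 under 3, and that of Cavin3, which then lay above 0, under 2, as the text above gives. With nuclei thinned to 1000 UMIs, Cavin1 was at -0.61, Cavin4 at 0.19 and Ehd2 at 0.81. The ratio of Pacsin1 between neuron classes and radial glia-like plus dividing nuclei was 0.60 and 0.52 (wildtype-labelled and knockout-labelled) with at least 2 markers, 1.85 and 1.23 with at least 4, and 1.76 and 1.37 with a lead of 2; Pacsin3 was at -1.91 in the knockout-labelled library with at least 2. The ratio of Pacsin3 in neurons of no class reversed to 0.13 with at least 2 markers. The cause of these moves was not tested.

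Thinning lowers shares by construction and leaves out nuclei with under 1000 UMIs, 846 and 1111 of those kept. The shares of nuclei with a UMI at 1000 UMIs, wildtype-labelled then knockout-labelled, were 0.274% and 0.180% for Cavin1, 0.137% and 0.144% for Cavin2, 0.325% and 0.467% for Cavin3, 2.69% and 3.02% for Cavin4, 0.137% and 0.269% for Ehd2, 3.55% and 3.95% for Pacsin1, 1.66% and 1.51% for Pacsin2, 0.497% and 0.395% for Pacsin3, 1.23% and 1.71% for Flot1, and 4.38% and 4.38% for Flot2. With genes of at least 20 UMIs, 405 were 2-fold higher and 196 lower between the libraries, against 57 and 18 at 100 UMIs, since more genes of low count enter. With at least 4 markers, 383 genes were 2-fold higher in neuron classes, against 98. Depth limits Cavin1, Cavin2, Cavin3 and Ehd2 most, with 26 to 74 UMIs per library.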
